A study of Rattus norvegicus with 4 samples.

Results

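The miR-23/27/24 clusters are a pair of related groups of miRNA genes, and their reads were followed here in exosomes, the small vesicles that cells release, from rat adipose tissue and from adipose stem cells. Members were all reads assigned to the rat hairpins rno-mir-23a, rno-mir-23b, rno-mir-24 (copies 1 and 2), rno-mir-27a and rno-mir-27b. The rule used hairpin names and no measured value, but it was set with earlier results of these data known. The members came to 6 of the 302 named hairpins with a count and 9 of the 348 miRNA arms. Exo-AT exosomes came from minced adipose tissue explants of Sprague-Dawley rats aged 4 weeks, kept in antibiotic-supplemented α-MEM (75 mL, spinner flask, 100 rpm) for 3 days. Exo-ADSCs exosomes came from adipose-derived stem cells at passage 3, kept in serum-free α-MEM with the same antibiotics for 3 days. The series holds 4 libraries, 2 per group, and read counts were used for Exo-AT replicates 1 and 2 and Exo-ADSCs replicate 2. Exo-ADSCs replicate 1 enters only through a table that the authors deposited, so Exo-ADSCs counts come from a single library, with no SD. The labels used here give no sex, fat depot or number of animals or cultures, and the replicates may be technical.

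Each hairpin of these clusters is cut from a shared primary transcript and yields a guide strand from its 3p arm, the form that is usually loaded into the silencing complex. miR-27 is known to hold back fat cell formation, with the adipogenic regulator PPARγ among its reported targets, and miR-23 and miR-27 have been described as promoting vessel growth in mouse endothelium. miR-24 is known as a brake on cell proliferation and, in mouse and zebrafish, on vessel growth. One mature miR-24-3p is made from both clusters.

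The 5 guide strands are shown first because their sequences decide which of them can be told apart. They are from RefSeq (GRCr8), written 5′ to 3′ with the seed, bases 2 to 8, in capitals. The hairpin sequences in the files were the same as RefSeq's for all 6 hairpins.
miR-23a-3p: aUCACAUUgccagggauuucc
miR-23b-3p: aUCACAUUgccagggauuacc
miR-27a-3p: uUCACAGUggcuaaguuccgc
miR-27b-3p: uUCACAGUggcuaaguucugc
miR-24-3p: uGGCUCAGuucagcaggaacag

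The 5 strands carry 3 seeds: UCACAUU in both miR-23 paralogs, UCACAGU in both miR-27 paralogs and GGCUCAG in miR-24. Counted from 1 at the 5′ end, miR-23a-3p and miR-23b-3p differ by U19A, and miR-27a-3p and miR-27b-3p differ by C19U. Reads of up to 18 nt from the annotated start therefore match both paralogs, and the authors divided such reads between them. miR-23b, miR-27b and miR-24-1 lie at chr17:1818669-1819482 on the minus strand of GRCr8, a span of 814 bp within the gene Aopep. miR-23a, miR-27a and miR-24-2 lie at chr19:40859455-40859843, also on the minus strand, a span of 389 bp that no coding gene covers, with Zswim4 and Nanos3 the nearest coding genes. These positions are those of the identical RefSeq hairpins, whereas the authors aligned to rn6. Whether the chromosome 17 hairpins are exonic or intronic was not examined.

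Depth limited how finely these members could be read. Named miRNAs held 9134 and 136024 counts in Exo-AT replicates 1 and 2, against 97204 counts in the Exo-ADSCs library. With the hairpins that the authors predicted included, assigned counts were 15200 and 181049 in Exo-AT, against 715114 in Exo-ADSCs. Named miRNAs were thus a far smaller part of assigned counts in Exo-ADSCs. The scalings below rest on named miRNAs only, except where predicted hairpins were added to the fit. Fold changes are therefore relative to named miRNAs, and plain scaling to all assigned counts was not tested. Of named counts, members held 92 (1.01%) and 974 (0.716%) in the Exo-AT libraries, against 1532 (1.58%) in Exo-ADSCs. Below, CPM means counts scaled to a common total of named miRNAs per library and adjusted by TMM, a scaling that evens out library composition, and a log2 fold change is Exo-AT over Exo-ADSCs. Where no read was found, up to 3 counts remain possible, or 328 and 22.1 CPM before TMM in the Exo-AT libraries and 30.9 CPM in Exo-ADSCs. The RNA also differed in length: of all other named miRNAs, reads under 19 nt made up 14.6% and 11.2% of counts in the Exo-AT libraries, against 47.1% in Exo-ADSCs. The part of these short reads in the differences below was not tested, except where values with longer reads only are given.

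miR-24-3p was far lower in Exo-AT than in Exo-ADSCs and miR-27b-3p was higher, while miR-27a-3p, miR-23a-3p and miR-23b-3p did not pass the test. Of the 7 member forms that passed the filter on low counts, 1 was called higher and 1 lower in Exo-AT at an adjusted p of 0.05 (edgeR quasi-likelihood test, Benjamini-Hochberg over 183 miRNAs). Among all 183 miRNAs, 35 (19.1%) were called higher and 35 (19.1%) lower, so the members' counts lie near this background. With total-count scaling that split was 46 (25.1%) higher and 19 (10.4%) lower. The spread in this test comes from the 2 Exo-AT libraries alone, and the 1 Exo-ADSCs library is taken to vary as they do.

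miR-24-3p, the guide strand common to both clusters, had 10 and 68 counts in Exo-AT replicates 1 and 2, against 1250 counts in Exo-ADSCs. Scaled, this was 790 CPM and 463 CPM in Exo-AT, against 19480 CPM in Exo-ADSCs. Both Exo-AT libraries were far below the Exo-ADSCs library, and the groups did not overlap. The Exo-AT mean was 626 ± 232 CPM (SD, n = 2). The log2 fold change was -5.13 (SE 0.36, adjusted p = 5.19e-30, edgeR), about 35.0-fold lower in Exo-AT relative to named miRNAs. All 183 miRNAs had a median log2 fold change of 0.37, and relative to it miR-24-3p stood at -5.50. With total-count scaling, which moves that median to 1.21, miR-24-3p stood at -4.29 and miR-27b-3p at 2.92, both still called. With the hairpins that the authors predicted added to the fit, the log2 fold change was -4.94 and the call was lost (adjusted p = 0.511), as were all calls: 0 of 401 features (0%) were called, 25 of them with an unadjusted p under 0.05.

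miR-27b-3p had 45 and 352 counts in Exo-AT replicates 1 and 2, against 46 counts in Exo-ADSCs. Scaled, this was 3557 CPM and 2394 CPM in Exo-AT, against 717 CPM in Exo-ADSCs. Both Exo-AT libraries were above the Exo-ADSCs library. The Exo-AT mean was 2976 ± 822 CPM (SD, n = 2), and the log2 fold change was 2.02 (SE 0.51, adjusted p = 4.97e-04, edgeR), or 1.65 relative to the median of all miRNAs. The direction held in each alternative, at 1.60 to 2.92 for miR-27b-3p counted by itself, but the call was lost in several. The adjusted p was 0.0517 with DESeq2 size factors (12.6% of all miRNAs called higher), 0.0585 with DESeq2's Wald test (18.8%), 0.0801 with reads of 20 to 25 nt only (23.1%) and 0.566 with predicted hairpins added.

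miR-27a-3p, which has the same seed as miR-27b-3p and comes from the other cluster, was not called in this test. It had 25 and 334 counts in Exo-AT, against 162 in Exo-ADSCs. This was 1976 and 2272 CPM in Exo-AT, with a mean of 2124 ± 209 CPM (SD, n = 2), against 2525 CPM in Exo-ADSCs. The Exo-ADSCs value lay just above both Exo-AT values, and the log2 fold change was -0.23 (SE 0.44, adjusted p = 0.718, edgeR). With only the most common read of each miRNA counted, it was called lower in Exo-AT (log2 fold change -1.02, adjusted p = 0.0418, the only alternative to call it, with 20.2% of all miRNAs called lower), and with total-count scaling the sign turned (0.62, not called). Whether the fold changes of the miR-27 paralogs differ was not tested. With both summed, miR-27-3p had a log2 fold change of 0.61 (SE 0.36, adjusted p = 0.181, edgeR, 18.2% of all miRNAs called higher).

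The miR-23 paralogs, which share the seed UCACAUU, had few counts, and neither was called. miR-23a-3p had 6 and 118 counts in Exo-AT, against 35 in Exo-ADSCs, which gave 474 and 803 CPM in Exo-AT against 545 CPM in Exo-ADSCs. miR-23b-3p had 3 and 77 counts in Exo-AT, against 24 in Exo-ADSCs, which gave 237 and 524 CPM in Exo-AT against 374 CPM in Exo-ADSCs. For both, the Exo-ADSCs value lay between the Exo-AT values. The log2 fold changes were 0.31 for miR-23a-3p (SE 0.77, adjusted p = 0.771) and 0.18 for miR-23b-3p (SE 0.91, adjusted p = 0.907, edgeR), and the sign of each changed without Exo-AT replicate 2 (-0.16 and -0.61).

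**Figure D1:**
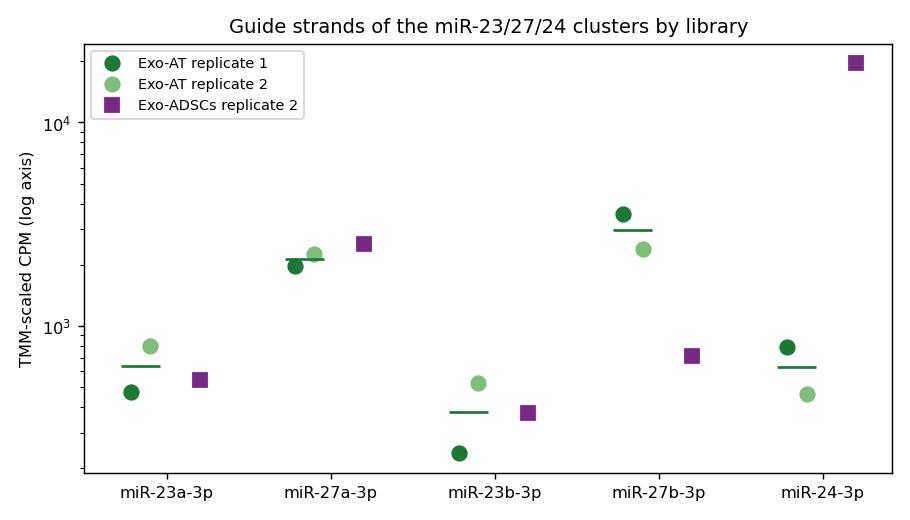
TMM-scaled CPM of each guide strand on a log axis, with circles for the 2 Exo-AT libraries, squares for the Exo-ADSCs library and a bar at the Exo-AT mean. miR-24-3p lies at 790 and 463 CPM in Exo-AT against 19480 CPM in Exo-ADSCs, and miR-27b-3p lies at 3557 and 2394 CPM in Exo-AT against 717 CPM in Exo-ADSCs.

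Within a library, counts of the guide strands can be set beside each other without scaling between libraries. miR-24-3p made up 11.2% and 7.17% of the counts of the 5 guide strands in the Exo-AT libraries (Wilson 95% intervals 6.22% to 19.5% and 5.69% to 8.98%), against 82.4% in Exo-ADSCs (80.4% to 84.2%). miR-27b-3p made up 50.6% and 37.1% in Exo-AT, against 3.03% in Exo-ADSCs. The order of the guide strands thus differed between the groups: miR-27b-3p had the most counts in both Exo-AT libraries, and miR-24-3p had the most in Exo-ADSCs. In Exo-AT replicate 2 the intervals of miR-27b-3p (34.1% to 40.2%) and miR-27a-3p (32.2% to 38.3%) overlapped, so their order there was not resolved. miR-27a-3p made up 28.1% and 35.2% in Exo-AT, against 10.7% in Exo-ADSCs.

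The shares by family avoid the division of short reads between paralogs, since each read then counts once. miR-27-3p reads numbered 69 and 683 in Exo-AT (80.2% and 72.3% of the reads of the 3 families), against 205 (13.7%) in Exo-ADSCs. miR-24-3p reads numbered 9 and 68 in Exo-AT (10.5% and 7.20%), against 1236 (82.5%) in Exo-ADSCs. miR-23-3p reads numbered 8 and 194 in Exo-AT (9.30% and 20.5%), against 58 (3.87%) in Exo-ADSCs. The miR-27 family led in both Exo-AT libraries and miR-24 led in Exo-ADSCs. Intervals and floors cover counting error only, since reads carry no molecular identifiers.

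**Figure D2:**
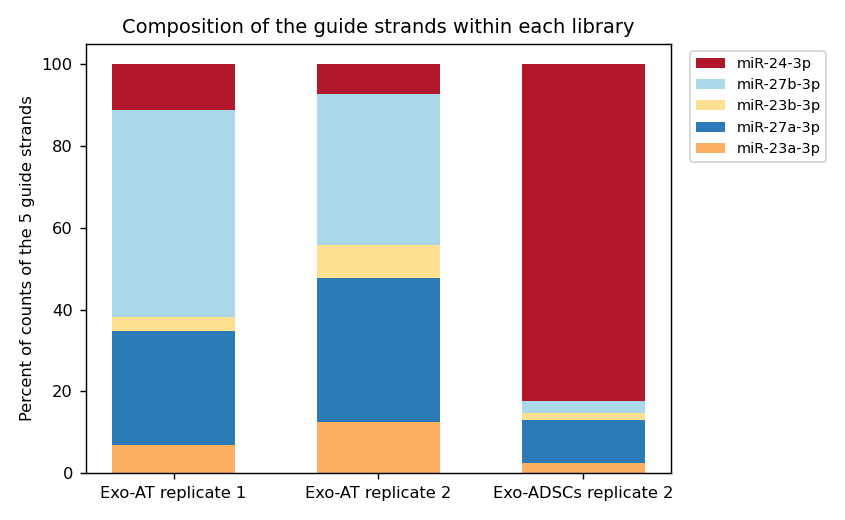
Stacked bars give the percent of the counts of the 5 guide strands held by each strand, 1 bar per library. miR-24-3p takes 11.2% and 7.17% in the Exo-AT libraries and 82.4% in Exo-ADSCs.

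Reads that reach the base at position 19 tell the miR-27 paralogs apart. Of those reads, miR-27b-3p held 38 of 56 (67.9%, interval 54.8% to 78.6%) and 265 of 512 (51.8%, 47.4% to 56.1%) in Exo-AT replicates 1 and 2, against 27 of 170 (15.9%, 11.2% to 22.1%) in Exo-ADSCs. Both Exo-AT intervals lie above the Exo-ADSCs interval. With all reads counted the shares were 64.3% and 51.3% in Exo-AT, against 22.1% in Exo-ADSCs. Reads shared between the miR-27 paralogs made up 15.6% and 24.7% of miR-27b-3p counts in Exo-AT, against 41.3% in Exo-ADSCs.

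For miR-23, far fewer reads could be assigned. Of the reads that tell its paralogs apart, miR-23b-3p held 0 of 3 and 12 of 65 (18.5%) in the Exo-AT libraries, against 0 of 11 in Exo-ADSCs. Apart from those 12 counts in Exo-AT replicate 2, every miR-23b-3p count came from a read that also fits miR-23a-3p. The values of miR-23b-3p given above are therefore mostly its portion of divided reads, and its presence in Exo-ADSCs and Exo-AT replicate 1 was not resolved. Of miR-23a-3p counts, 50% and 55.1% in Exo-AT were shared in this way, against 68.6% in Exo-ADSCs.

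All miR-24-3p reads fit both miR-24 hairpins, so the 2 copies can be told apart by their 5p arms only. Their annotated 5p strands are shown with the bases that differ in capitals.
miR-24-1-5p: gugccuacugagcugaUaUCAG
miR-24-2-5p: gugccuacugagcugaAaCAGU
The 5p reads were assigned to miR-24-2 throughout, with 0 and 7 counts in the Exo-AT libraries against 11 in Exo-ADSCs, and no read was particular to miR-24-1. All 7 counts in Exo-AT replicate 2 were 1 sequence, and all 11 in Exo-ADSCs were another, longer one.
Exo-AT replicate 2: tgtgcctactgagctgaa
Exo-ADSCs replicate 2: gtgcctactgagctgaaacag
The 5p arm of miR-24 held 0 of 10 and 7 of 75 counts (9.33%, interval 4.59% to 18%) in Exo-AT replicates 1 and 2, against 11 of 1261 (0.872%, 0.488% to 1.56%) in Exo-ADSCs. Tested across libraries, miR-24-5p had a log2 fold change of -2.06 (SE 2.22, adjusted p = 0.464, edgeR).

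Other reads of the 5p arms were few. The reads counted as miR-23a-5p, 3 and 12 in Exo-AT against 0 in Exo-ADSCs, were all the 15-nt sequence atgggatCtgatgcc, whose capital marks a mismatch to the hairpin. This read overlaps no annotated strand. The RefSeq strands used here include no 5p strand for miR-23a, so the name miR-23a-5p rests on read position only. That form was tested and not called (adjusted p = 0.345, edgeR), and no fold is given against 0 counts. miR-27a-5p had 0 and 6 counts in Exo-AT against 0 in Exo-ADSCs, from a read that starts 5 bases before the hairpin and does not overlap the annotated arm. miR-27b-5p had 0 counts in both Exo-AT libraries and 4 in Exo-ADSCs. Both were too low to test, and miR-23b had no 5p count in any of the 3 libraries.

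Read ends differed among the members. miR-24-3p was read mainly as 2 forms that start at the same base and differ in length.
20 nt: tggctcagttcagcaggaac
22 nt: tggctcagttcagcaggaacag
The 20-nt form had 4 and 14 counts in Exo-AT (40% and 20.6% of miR-24-3p), against 510 (40.8%) in Exo-ADSCs. The 22-nt form, the full annotated strand, had 4 and 32 counts in Exo-AT (40% and 47.1%), against 398 (31.8%) in Exo-ADSCs. miR-24-3p reads under 19 nt made up 20% and 11.8% in Exo-AT, against 0.480% in Exo-ADSCs, the reverse order of the other named miRNAs. Counted from reads of 20 to 25 nt alone, miR-24-3p had a log2 fold change of -6.17 and was still called.

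The read lengths of the miR-27 paralogs depended on which reads were counted. Reads of 21 to 23 nt made up 56.0% and 50% of miR-27a-3p in Exo-AT, against 67.3% in Exo-ADSCs. The same lengths made up 46.7% and 43.2% of miR-27b-3p in Exo-AT, against 23.9% in Exo-ADSCs. In Exo-ADSCs the intervals of miR-27a-3p (59.7% to 74.0%) and miR-27b-3p (13.9% to 37.9%) did not overlap, and all other named miRNAs there stood at 24.4%. Part of this gap comes from the reads divided between them, 19 counts in each, which weigh more in miR-27b-3p. On reads of its own alone, miR-27b-3p had 11 of 27 counts (40.7%, interval 24.5% to 59.3%) at 21 to 23 nt in Exo-ADSCs, and miR-27a-3p had 109 counts there (76.2%, 68.6% to 82.5%). At 20 to 25 nt there were 27 of 27 counts for miR-27b-3p (interval 87.5% to 100%) and 134 counts for miR-27a-3p (93.7%, 88.5% to 96.7%). These intervals overlapped, and few such reads can be shorter, since they must reach position 19. For miR-23a-3p, reads of 21 to 23 nt made up 50% and 29.7% in Exo-AT, against 20% in Exo-ADSCs.

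**Figure D3:**
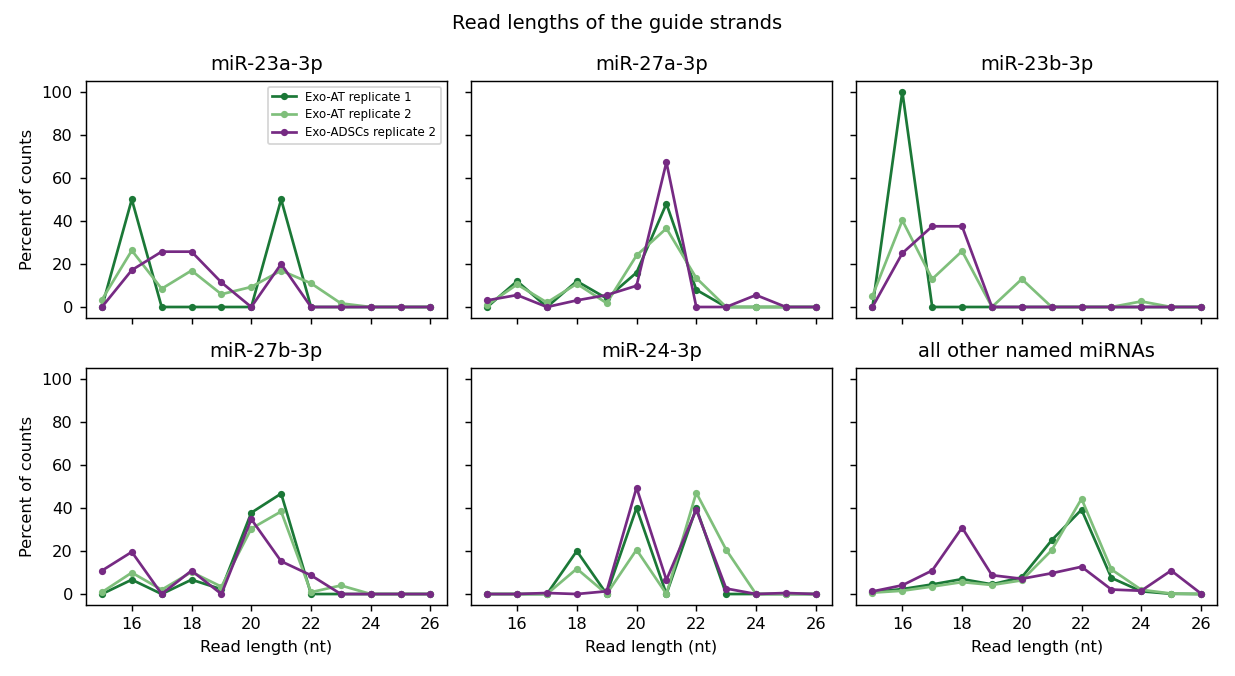
Percent of counts at each read length in nt for each guide strand and for all other named miRNAs, 1 line per library. In Exo-ADSCs the other named miRNAs peak at 18 nt, whereas miR-24-3p peaks at 20 nt and miR-27a-3p at 21 nt. The Exo-AT replicate 1 lines of miR-23a-3p and miR-23b-3p rest on 6 and 3 counts.

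Many Exo-AT reads of miR-27b-3p ended in a base that does not match the hairpin. The most frequent such read is set below the annotated strand as it was read, with the mismatched base in capitals (C21T, counted from the read's 5′ end).
annotated strand: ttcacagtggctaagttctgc
end mismatch: ttcacagtggctaagttctgT
The annotated strand had 9 and 60 counts in Exo-AT, against 7 in Exo-ADSCs. The read with the mismatch had 9 and 62 counts in Exo-AT, against 0 in Exo-ADSCs. All reads that mismatch at the last base only made up 12 of 45 counts (26.7%) and 88 of 352 counts (25%) of miR-27b-3p in Exo-AT. In Exo-ADSCs they were 0 of 46, with a floor of 3 counts at 6.52% and a Wilson upper limit of 7.71%. Both Exo-AT intervals, 16.0% to 41.0% and 20.8% to 29.8%, lie above that Wilson limit. Of the 46 counts, 19 were reads shared with miR-27a-3p. The limit on the remaining 27 counts is wider and was not determined. This kind of end was chosen after the reads were seen. Its share among all other named miRNAs was not determined, so whether it is particular to miR-27b-3p was not tested.

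On miR-27a-3p this kind of end made up 8% and 11.4% of counts in Exo-AT, against 4.94% in Exo-ADSCs, and the intervals of the groups overlapped. The difference between the paralogs was not tested. On miR-24-3p it was 0 of 10 and 14 of 68 counts (20.6%) in Exo-AT, against 44 of 1250 (3.52%) in Exo-ADSCs. Exo-AT replicate 2 stood above Exo-ADSCs, and Exo-AT replicate 1 had too few reads to place. With mismatched reads left out of the counts, miR-27b-3p had a log2 fold change of 1.69 and was still called, but the median of all miRNAs was then 0.94, so that relative to it miR-27b-3p stood at 0.75.

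**Figure D4:**
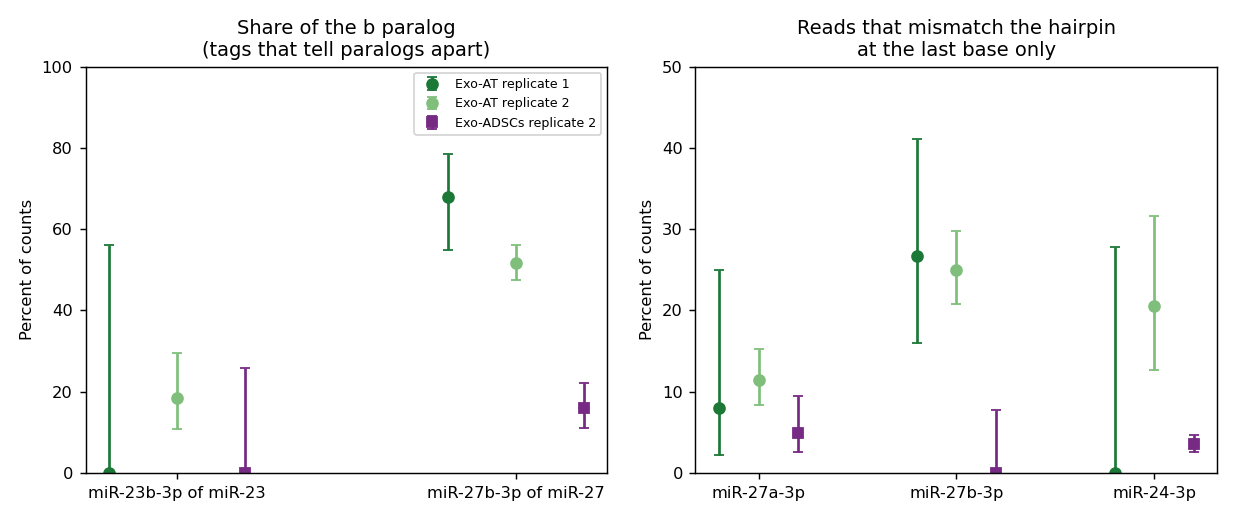
Left, percent of the b paralog among reads that tell the paralogs apart, and right, percent of counts that mismatch the hairpin at the last base only. Points are libraries and bars are Wilson 95% intervals. miR-27b-3p stands at 67.9% and 51.8% of miR-27-3p in Exo-AT against 15.9% in Exo-ADSCs, and its end mismatches at 26.7% and 25% in Exo-AT against 0 of 46 counts in Exo-ADSCs.

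The authors' deposited table, a list of 45 miRNAs raised in Exo-AT, holds 3 of the 5 guide strands and gives values for all 4 libraries as normalized reads. In it miR-27b-3p has 1903 and 561 in the columns exo-at1 and exo-at2, against 116 and 65 in exo-adsc1 and exo-adsc2, with an authors' fold of 12.4. In the authors' deposited table miR-23a-3p has 637 and 187 in the Exo-AT columns, against 55 and 50 in the Exo-ADSCs columns, with a fold of 6.75. miR-27a-3p has 1805 and 748 in the Exo-AT columns of the authors' deposited table, against 558 and 227, with a fold of 3.20. For all 3 the Exo-AT values lie above both Exo-ADSCs values, also for miR-23a-3p and miR-27a-3p, which were not called from the counts. The table lists only miRNAs that its authors picked as raised in Exo-AT, so these directions are no independent evidence. miR-24-3p and miR-23b-3p are not listed there. The authors' fold rests on their own normalization, whose factor is not stated, and in 45 of 45 entries it equals the ratio of the group means after adding 10 to each.

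The columns of the authors' deposited table can be set beside the counts. For the 3 members, the column exo-at1 holds 5.40 to 5.41 times the counts in the file of Exo-AT replicate 2. For the same 3, the column exo-adsc2 holds 1.40 to 1.43 times the counts of Exo-ADSCs replicate 2. In the scaling used here, 1 count was 7.35 CPM in Exo-AT replicate 2 and 10.3 CPM in Exo-ADSCs before TMM. The authors' values thus weigh an Exo-AT count more, relative to an Exo-ADSCs count, than the CPM do. The part of this in the authors' folds was not tested. The column exo-at2 holds 62.3 times the counts of the full annotated strand in the file of Exo-AT replicate 1 for all 3, and 33.0 times those of the most common read for miR-27b-3p. Over the 45 listed miRNAs, 36 had an exo-at1 value within 2% of the median ratio to Exo-AT replicate 2, and 2 within 2% of that to Exo-AT replicate 1. For exo-at2, 25 of 45 were within 2% of the median ratio to the most common read of Exo-AT replicate 1. By these ratios the replicate numbers of the Exo-AT columns and files run opposite ways. Both are Exo-AT, so no comparison between the groups changes.

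Of other miRNAs known from blood vessel growth and fat cell formation, a list of 17 hairpins, 18 forms were tested. Of these, 2 were called higher and 7 lower in Exo-AT, and 9 were not called (edgeR, Benjamini-Hochberg over 183). Among all 183 miRNAs, 35 (19.1%) were called higher and 35 (19.1%) lower. The list's median log2 fold change was -1.32, beside 0.37 over all 183. Among those called, the highest were miR-126a-3p, the miRNA typical of endothelium, at 3.40 (SE 0.56, adjusted p = 8.04e-08), and miR-26a-5p at 2.50 (SE 0.39, adjusted p = 1.21e-08). The lowest of those called were the hypoxia-induced miR-210-3p at -4.72 (SE 0.44, adjusted p = 5.09e-20) and miR-130a-3p, which targets PPARγ, at -3.53 (SE 0.68, adjusted p = 3.87e-06). All reads of miR-130a-3p in the 3 libraries also align to hairpins that the authors predicted.

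miRNAs that mark cell types differed between the libraries as well, and their part in the results above was not tested. The endothelial miR-126a, both arms summed, stood at 2767 and 4721 CPM in Exo-AT, against 499 CPM in Exo-ADSCs. The muscle list summed to 1423 and 1360 CPM in Exo-AT, against 312 CPM in Exo-ADSCs. Its miR-1b-3p held 1423 and 1204 CPM of that in Exo-AT, against 46.8 CPM in Exo-ADSCs. The remaining muscle forms summed to 0 and 156 CPM in Exo-AT, against 265 CPM in Exo-ADSCs, but did not all run the same way. miR-206-3p had 0 and 2 counts in Exo-AT, against 12 in Exo-ADSCs, and miR-206-5p had 0 and 0, against 3. Neither arm was tested. Both were lower in Exo-AT replicate 2 than in Exo-ADSCs, but Exo-AT replicate 1 had too few reads to place them. miR-133a-3p had no count in Exo-AT replicate 1 and was above Exo-ADSCs in Exo-AT replicate 2. Its log2 fold change was 1.74, not called (adjusted p = 0.623, edgeR). The leukocyte list summed to 316 and 871 CPM in Exo-AT, against 234 CPM in Exo-ADSCs. Of its 5 forms, miR-142-3p and both arms of miR-223 had no count in either Exo-AT replicate 1 or Exo-ADSCs, and miR-150-5p was at 0 in Exo-ADSCs only. miR-142-5p was at 158 and 238 CPM in Exo-AT, against 234 CPM in Exo-ADSCs. The mesenchymal stromal list, with miR-143, miR-145, miR-199a and miR-214, summed to 143779 and 123887 CPM in Exo-AT, against 242630 CPM in Exo-ADSCs. Its miR-143-3p held 139432 and 119303 CPM of that in Exo-AT, against 235991 CPM in Exo-ADSCs. Only miR-199a-5p ran the other way, at 1739 and 1857 CPM in Exo-AT against 982 CPM in Exo-ADSCs. Of the list's 6 forms, both arms of miR-145 were at 0 counts in Exo-AT replicate 1, and the other forms had counts in all 3 libraries. The erythroid and platelet list summed to 36834 and 154497 CPM in Exo-AT, against 50789 CPM in Exo-ADSCs. Its miR-486-5p held 36676 and 153191 CPM of that in Exo-AT, against 49869 CPM in Exo-ADSCs. miR-451-5p stood at 158 and 1292 CPM in Exo-AT, against 857 CPM in Exo-ADSCs. In exosomes, a change in the vesicles per cell type cannot be told apart from a change in the miRNA each vesicle carries.

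The tested miRNAs nearest to each guide strand in their pattern over the 3 libraries, by Euclidean distance between centred log2 CPM values, are given as a description. Nearest to miR-24-3p were miR-210-3p (distance 0.860), miR-214-3p (1.01) and miR-203a-3p (1.03), all with a negative log2 fold change. Nearest to miR-27b-3p were miR-30a-3p (0.227), miR-101a-3p (0.346) and miR-128-3p (0.356), all with a positive one. miR-27a-3p lay nearest to miR-218a-5p, let-7i-5p and miR-10a-5p (0.0793 to 0.132), and miR-23a-3p to miR-26b-5p, miR-106b-3p and miR-10b-5p (0.144 to 0.197). miR-23b-3p lay nearest to miR-98-5p (0.0528), let-7b-5p (0.111) and miR-196b-5p (0.295). The miR-24-3p distances were the largest of the 5, so no other tested miRNA lay close to its pattern on this scale.

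**Figure D5:**
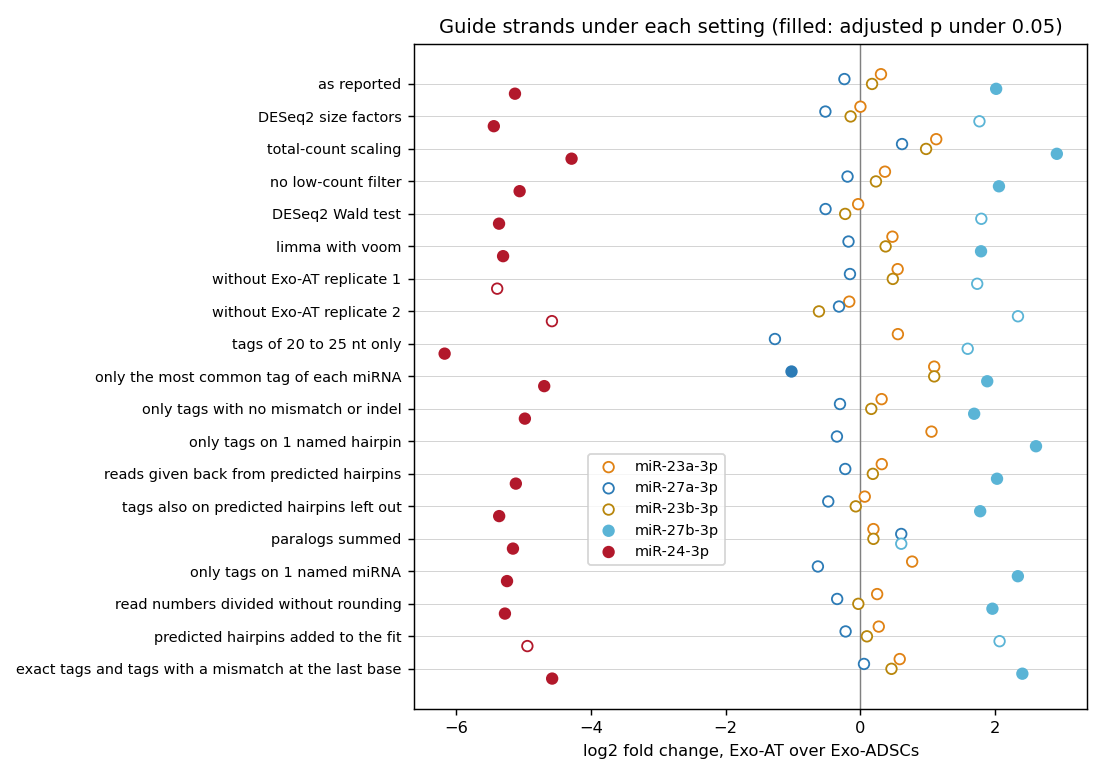
log2 fold change (Exo-AT over Exo-ADSCs) of each guide strand under each processing alternative, filled where the adjusted p was under 0.05. Rows that leave out an Exo-AT replicate have no test and are open. miR-24-3p lies between -6.17 and -4.29 and miR-27b-3p above 0 throughout, whereas miR-23a-3p, miR-23b-3p and miR-27a-3p lie on both sides of 0.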

How the data were processed

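Exosomal small RNA was sequenced, with inserts of about 15 to 35 nt per the labels' protocols. The authors' tag files hold, per the file headers, whole-number counts per distinct read sequence and hairpin, and reads on several hairpins were divided and rounded. Novoalign 2.07.11 and the rn6 assembly are listed in the submitters' processing notes. The authors' deposited table gives normalized reads (a score of unstated factor) and a fold, a ratio of group means with 10 added to each. The file of Exo-ADSCs replicate 1 summarises read classes and was not used.

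Members and lists were chosen with earlier results of these data known. Named counts were summed by miRNA and arm (by read midpoint) and tested with edgeR 4.0.16 (quasi-likelihood, two-sided, TMM, R 4.3.3; minimum count 10, total 15), adjusted by Benjamini-Hochberg and called at 0.05, with 1 residual degree of freedom. TMM factors were 1.39 and 1.08 (Exo-AT) and 0.664 (Exo-ADSCs). Both Exo-AT files carry 1 sample name inside, so p-values may reflect technical spread only. Shares have Wilson 95% intervals. Named were all member arms with a count, the 3 nearest patterns, 3 common reads per guide strand and the 2 highest and 2 lowest called list members. End mismatches were chosen after reads were seen. Alternatives included DESeq2 1.42.0 and limma 3.58.1. The edgeR script was tested on simulated counts.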

Additional observations from a re-analysis of the deposited data

How the results depend on the processing

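miR-24-3p was lower in Exo-AT in each of 15 alternatives that gave it a value beside those leaving out a library, at log2 fold changes of -6.17 to -4.29, and lost its call with predicted hairpins added (-4.94). Without 1 Exo-AT replicate it was -5.39 to -4.58. None of the alternatives scaled plainly to all assigned counts, and named miRNAs were 97204 of 715114 such counts in Exo-ADSCs. With such scaling Exo-ADSCs values would fall relative to Exo-AT, so the size of the miR-24-3p fold depends on the denominator. miR-27b-3p was higher in each of 16 and lost its call with DESeq2 size factors (1.77), DESeq2's Wald test (1.80), reads of 20 to 25 nt (1.60), both paralogs summed (0.61) and predicted hairpins added (2.07), all giving 0 member forms higher. Without 1 replicate it was 1.74 to 2.34. miR-27a-3p was called lower with the most common read of each miRNA (-1.02), giving 2 forms lower, and turned positive without a call with total-count scaling (0.62), paralogs summed (0.61) and exact reads plus last-base mismatches (0.056). Without 1 replicate it was -0.31 to -0.15. miR-23a-3p turned to -0.030 with DESeq2's Wald test. miR-23b-3p turned to -0.14 with DESeq2 size factors, -0.22 with the Wald test, -0.066 without reads shared with predicted hairpins and -0.028 with reads divided unrounded. Without 1 replicate miR-23a-3p was -0.16 to 0.56 and miR-23b-3p -0.61 to 0.48. With reads on 1 named hairpin only, miR-24-3p had no reads left and 0 member forms were lower. The cause of these changes was not tested. Predicted hairpins, unrounded reads, reads on 1 named miRNA and last-base mismatches were alternatives chosen after seeing the data.

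Relative to the median of all miRNAs (0.37 under TMM, 0.08 under DESeq2 size factors and 1.21 under total-count scaling), miR-24-3p stood at -5.50, -5.52 and -5.50, and miR-27b-3p at 1.65, 1.69 and 1.71. Over all settings these relative values ran from -6.55 to -4.21 for miR-24-3p and, for miR-27b-3p, from 0.56 (most common read) to 2.71 (without Exo-AT replicate 2). Calls over all miRNAs went down to 0 of 401 with predicted hairpins. Of 183 miRNAs, 35 were called higher and 35 lower in the test reported, against 46 and 19 with total-count scaling. Under DESeq2 size factors 23 of 183 (12.6%) were called higher. No paired analysis was possible because the tag counts share only replicate number 2 between the groups. Exo-AT replicate 1, with 92 member counts, limits the depth.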

Other observations

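In Exo-ADSCs the third most frequent miR-24-3p read, tggctcagttcagcaggCac, had 70 counts and a mismatch to the hairpin (capital, A18C counted from the read's 5′ end), against 0 counts in both Exo-AT libraries. At read position 18, bases that are A in the hairpin were read as C in 0 of 10 and 0 of 68 miR-24-3p counts in Exo-AT, against 11.6% of 1240 counts (Wilson 95% interval 9.95% to 13.5%) in Exo-ADSCs. Over all other named miRNAs the same change at position 18 was found in 0 of 526 and 0 of 8281 counts in Exo-AT, against 7.97% of 2785 counts (7.02% to 9.04%) in Exo-ADSCs. The change was thus also present outside miR-24-3p in the Exo-ADSCs library, where the miR-24-3p interval lay above the pooled one. How many of the other miRNAs carried the change was not determined. At read position 15 it was found in 11 of 2233 (0.493%) and 15 of 27843 (0.0539%) counts of the other named miRNAs in Exo-AT, against 943 of 38901 (2.42%) in Exo-ADSCs.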
